A study of Rattus norvegicus with 29 samples.

Results

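Acyl-CoA thioesterases cut acyl-CoA into a free fatty acid and coenzyme A, and amino acid N-acyltransferases move the acyl group of an acyl-CoA onto taurine or glycine. The family described here holds 10 rat genes: the thioesterases Acot1, Acot2, Acot4, Acot7, Acot8, Acot12 and Acot13, and the N-acyltransferases Acnat1, Acnat2 and Baat. They were found by name, as the rows of the array table whose single gene symbol was one of these. Of the 10 genes, 8 had a row of their own, on 9 of the 27342 transcript clusters, a transcript cluster being the set of array probes summarised into 1 value. Acnat2 had 2 clusters, Acot4 lay in a cluster shared with Acot3 and is not given, and Acnat1 had no cluster under its own symbol. The family was chosen by the measured log2 differences of 2 of its genes at 2000 mg/kg, the strong rise of Acot1 and the strong fall of Acnat2, so the values of those 2 are a description and carry no test. The other 6 measured genes, Acot2, Acot7, Acot8, Acot12, Acot13 and Baat, were tested.

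The liver samples came from male Crl:CD Sprague-Dawley rats dosed once a day by oral gavage with PMCol (pentamethylchromanol, a chromanol with the ring system of vitamin E and no phytyl tail) or with its vehicle, methylcellulose in water. Dosing lasted 7 days with liver taken on day 8, or 28 days with liver taken on day 29. Groups by dose and day were vehicle on day 8 (6 animals), 2000 mg/kg on day 8 (6), vehicle on day 29 (6), 200 mg/kg on day 29 (6) and 2000 mg/kg on day 29 (5), with 1 array per animal and 29 in all. None of the 29 samples was of 200 mg/kg on day 8. The labels give an age of 6 to 7 weeks, and the day 29 groups were older at death than the day 8 groups. Each value is a log2 signal minus the median of its cluster over the 29 arrays, so values show differences between animals and never how much of a transcript was present, and genes cannot be ranked by level. The precision of the stored values was judged for entries printed with enough decimals, which need not be all 29 of a cluster. By it, signals were 8 or more in the judged animals for 7783 of the 27342 clusters, among them Acot2, Acot7, Acot12 and Baat. Acot1, Acot8, Acot13 and both Acnat2 clusters were not among them. The base of the log is not given in the sources used here and was taken as 2, and every fold change rests on that.

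In liver, acyl-CoA is the activated form in which fatty acids and bile acids enter oxidation, lipid synthesis or conjugation. The type I thioesterases form a gene cluster of close relatives placed in different compartments, Acot1 in the cytosol, Acot2 in mitochondria and Acot4 in peroxisomes, and Acot1 is known in rodent liver as a target of the fatty acid receptor PPAR alpha. Acot7, Acot8, Acot12 and Acot13 are type II enzymes with a hot dog fold and no sequence kinship to type I. Baat joins bile acids to taurine or glycine, the last step before bile acids are secreted, and Acnat1 and Acnat2 are its close relatives, with the same fold as the type I thioesterases. In the RefSeq gene table, Acot2, Acot1, Acot4, Acot3 and Acot5 lay next to each other on chromosome 6, with the ribosomal protein entry Rpl23al8 between Acot1 and Acot4, and Acnat2, a pseudogene of it, Acnat1 and Baat lay side by side on chromosome 5.

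The sequences before the start sites of Acot1 and of the Acnat2 and Baat neighbours are shown because these genes moved in opposite directions and because Acnat2 and Acnat1 are near copies. Each is the 250 bases before the RefSeq start (assembly GRCr8), 5′ to 3′ on the gene's strand. Acot1 is at chr6:109367024-109367273 on the plus strand and Baat at chr5:68656138-68656387 on the minus strand. Capitals mark motif matches, CCAAT on either strand in Acot1 and the STAT core TTCNNNGAA in Baat.
Acot1: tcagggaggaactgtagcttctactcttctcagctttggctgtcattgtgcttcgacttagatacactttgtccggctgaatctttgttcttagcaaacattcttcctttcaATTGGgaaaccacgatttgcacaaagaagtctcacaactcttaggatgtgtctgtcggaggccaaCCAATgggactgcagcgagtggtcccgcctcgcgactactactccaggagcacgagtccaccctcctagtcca
Baat: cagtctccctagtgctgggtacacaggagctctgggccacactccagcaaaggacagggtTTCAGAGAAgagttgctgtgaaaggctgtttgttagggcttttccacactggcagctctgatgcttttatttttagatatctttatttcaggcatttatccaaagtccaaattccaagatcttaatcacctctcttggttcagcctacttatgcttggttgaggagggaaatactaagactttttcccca
Acnat2 is at chr5:68553020-68553269 and Acnat1 at chr5:68597168-68597417, both on the minus strand. Capitals mark the bases that differ between the pair or have no partner in their alignment.
Acnat2: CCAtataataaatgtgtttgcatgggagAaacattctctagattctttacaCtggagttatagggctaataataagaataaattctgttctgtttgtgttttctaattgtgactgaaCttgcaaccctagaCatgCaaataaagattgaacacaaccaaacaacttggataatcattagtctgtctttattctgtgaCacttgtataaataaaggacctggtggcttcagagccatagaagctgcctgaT
Acnat1: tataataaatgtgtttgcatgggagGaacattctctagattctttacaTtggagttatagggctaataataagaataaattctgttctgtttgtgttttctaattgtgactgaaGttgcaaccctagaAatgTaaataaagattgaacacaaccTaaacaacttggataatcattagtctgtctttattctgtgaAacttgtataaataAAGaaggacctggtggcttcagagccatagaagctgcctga
In that alignment 240 of 246 aligned bases were the same (97.6%), against 61.1% for Acot1 and Acot2. Whether the probes of the Acnat2 clusters also read Acnat1 or the pseudogene between them was not tested. Likewise the probes of Acot1 and Acot2 were not tested for reading each other's transcript.

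All 10 members had a promoter window in RefSeq, and 6 motifs were searched on both strands in the 250 bases before each start. The PPAR and RXR direct repeat, a pair of AGGTCA with 1 base between, matched in none of the 11 member windows and in 0.0508% of all 33469 windows. AGGTCA alone, which the repeat contains, matched in Acot4, Acot8 and Acot12 and in 14.1% of windows. The antioxidant response core TGACNNNGC matched in Acot2 and in 10.1%, and TTCNNNGAA in Acot4, Acnat1 and Baat and in 7.67%. TATAAA matched in Acnat1 and Acnat2 and in 12.9%, and CCAAT in Acot1, Acot2, Acot4 and Acnat1 and in 34.0%. Each is a match of letters in 1 short window and says nothing of binding.

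Acot1 was far higher in every animal given 2000 mg/kg for 7 days. Its 6 vehicle animals on day 8 ran from -0.42 to 0.74 with a median of 0.11, and the 6 treated animals from 4.01 to 5.61 with a median of 4.91. On day 29 the 6 vehicle animals ran from -0.97 to -0.085 (median -0.85), and the 5 animals at 2000 mg/kg had 1.30, 3.79, 0.55, 2.78 and 2.60 in replicates 1 to 5. The groups did not overlap on either day. The treated minus vehicle difference was 4.85 ± 0.34 (SE) on day 8, a 28.8-fold higher signal, and 2.90 ± 0.36 on day 29, 7.49-fold. With quantile normalization of the arrays, run on the values already centred per cluster, the day 8 difference was 3.21.

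The 5 day 29 animals at 2000 mg/kg were spread widely in Acot1, with an SD of 1.28 against 0.57 at the same dose on day 8 and 0.33 in the day 29 vehicle group. Replicate 2 stood 9.47-fold above replicate 3. Replicate 2 also had among the highest values of the group in Acot2 (0.56, with replicate 4) and replicate 3 the lowest (0.22). Cpt1b, the muscle form of the enzyme that makes acyl-carnitine for mitochondrial entry, followed the same order at its ends, with 1.04 in replicate 2 and -0.21 in replicate 3. Acnat2 was highest, so least lowered, in replicate 3 of that group (-1.18 in its first cluster) and lowest in replicate 5 (-3.00).

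**Figure D1:**
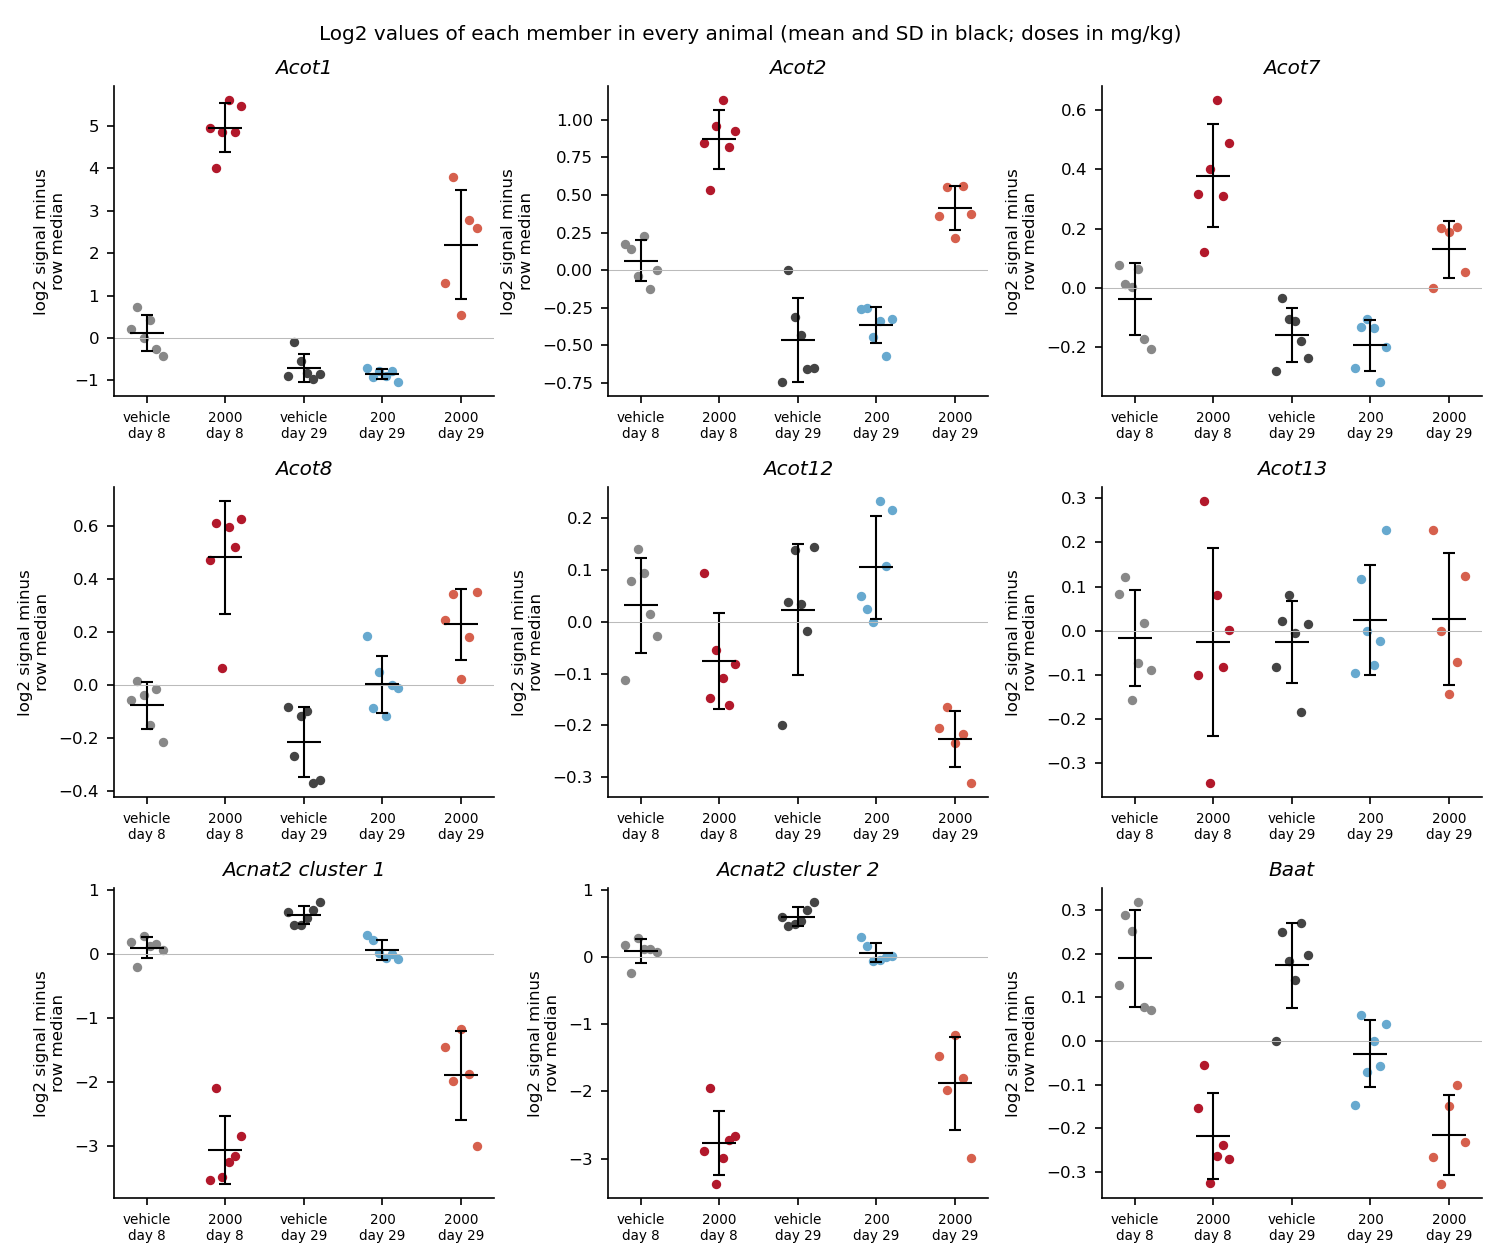
Log2 signal minus the row median (vertical axis) of each measured member in every animal, by dose and day, with the group mean and SD as black bars. Acot1 and Acot2 sit above vehicle and Acnat2 and Baat below it in both 2000 mg/kg groups, and the 5 Acot1 values of the day 29 group run from 0.55 to 3.79.

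Acot2, the mitochondrial relative beside Acot1 in the genome, rose at 2000 mg/kg by a smaller amount. Its vehicle animals on day 8 ran from -0.12 to 0.22 (median 0.071) and its treated animals from 0.53 to 1.13 (median 0.88). On day 29 the vehicle animals ran from -0.75 to 0 (median -0.54), and the treated ones had 0.36, 0.56, 0.22, 0.56 and 0.37. Treated and vehicle animals were apart on both days. The difference was 0.81 ± 0.10 on day 8 (1.75-fold, limma adjusted p = 1.29e-06) and 0.88 ± 0.11 on day 29 (1.84-fold, adjusted p = 6.64e-07). The other type I gene with a row, Acot5, is given with the other thioesterases.

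Among the type II thioesterases, Acot7 and Acot8 rose at 2000 mg/kg on both days, Acot12 fell on day 29, and Acot13 did not pass the test. Acot7 is a cytosolic long-chain thioesterase best known from brain. It ran from -0.21 to 0.076 in day 8 vehicle animals (median 0.0072) and from 0.12 to 0.63 in treated ones (median 0.36). On day 29 it ran from -0.28 to -0.035 in vehicle animals (median -0.15), and was 0, 0.20, 0.19, 0.20 and 0.054 at 2000 mg/kg. All treated animals lay above all vehicle animals of their day, by a mean of 0.42 ± 0.07 on day 8 (adjusted p = 3.93e-05) and 0.29 ± 0.07 on day 29 (adjusted p = 0.00339).

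Acot8, a peroxisomal thioesterase of broad substrate range that also acts on bile acid CoA esters, ran from -0.22 to 0.017 in day 8 vehicle animals (median -0.047) and from 0.065 to 0.63 in treated ones (median 0.56). On day 29 it ran from -0.37 to -0.084 in vehicle animals (median -0.19), and was 0.25, 0.34, 0.023, 0.18 and 0.35 at 2000 mg/kg. The groups were apart on both days, although 1 treated animal of each day (replicate 3) lay just above the highest vehicle animal. The difference was 0.56 ± 0.08 on day 8 (1.47-fold, adjusted p = 6.20e-06) and 0.45 ± 0.08 on day 29 (1.36-fold, adjusted p = 0.000207).

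Acot12 hydrolyses acetyl-CoA in the cytosol. Its vehicle animals on day 29 ran from -0.20 to 0.14 (median 0.036), and the 2000 mg/kg animals had -0.20, -0.17, -0.23, -0.22 and -0.31. The lowest vehicle animal lay within the treated range. The difference was -0.25 ± 0.06 on day 29 (adjusted p = 0.00233) and -0.11 ± 0.06 on day 8 (adjusted p = 0.205). Acot13, a small thioesterase linked to mitochondria, had group means from -0.025 to 0.028 and single animals from -0.34 to 0.29, both ends in the 2000 mg/kg group of day 8. It differed from vehicle by -0.0092 ± 0.08 on day 8 and 0.053 ± 0.08 on day 29, with 95% intervals from -0.17 to 0.15 and from -0.12 to 0.22.

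Acnat2 was lower in every 2000 mg/kg animal, by about as much in both of its clusters. In the first cluster the day 8 vehicle animals ran from -0.21 to 0.27 (median 0.13) and the treated ones from -3.53 to -2.09 (median -3.21). On day 29 the vehicle animals ran from 0.45 to 0.81 (median 0.60) and the treated ones had -1.45, -1.99, -1.18, -1.88 and -3.00. No treated animal came near the vehicle range on either day. The differences were -3.16 ± 0.21 on day 8 (8.92-fold lower) and -2.50 ± 0.22 on day 29 (5.67-fold lower). The second cluster gave -2.85 ± 0.20 and -2.48 ± 0.21. With quantile normalization the day 8 differences of the 2 clusters were -2.24 and -1.97. Over the 29 animals the 2 clusters had a Pearson r of 0.997, and 0.967 after the group means were removed, a description over shared arrays.

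Baat fell at 2000 mg/kg by far less than Acnat2. It ran from 0.071 to 0.32 in day 8 vehicle animals (median 0.19) and from -0.33 to -0.054 in treated ones (median -0.25). On day 29 it ran from 0.00019 to 0.27 in vehicle animals (median 0.19), and was -0.27, -0.33, -0.15, -0.10 and -0.23 at 2000 mg/kg. Every treated animal lay below every vehicle animal of its day. The difference was -0.41 ± 0.06 on day 8 (1.33-fold lower, adjusted p = 3.36e-06) and -0.39 ± 0.06 on day 29 (1.31-fold lower, adjusted p = 1.15e-05).

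Counted over the 6 tested members, limma called 3 higher and 1 lower on day 8, where it called 9.32% of all clusters higher and 9.32% lower (18.6% in all). On day 29 it called 3 higher and 2 lower, against 12.1% higher and 9.55% lower of all clusters (21.6% in all). Treated and vehicle animals did not overlap in 4 of the 6 on each day, against 11.0% and 11.4% of all clusters. The members were chosen with earlier results known, so these counts describe them and test nothing.

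**Figure D2:**
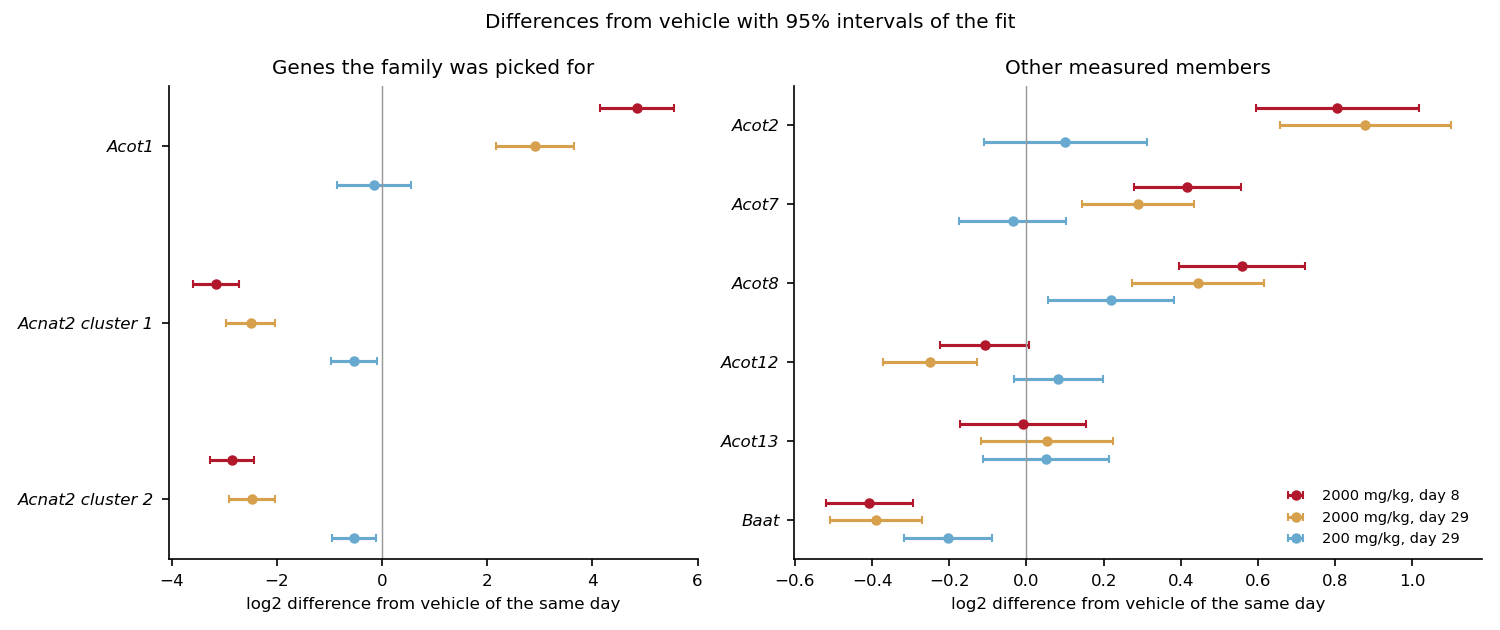
Log2 difference from the vehicle group of the same day (horizontal axis) for each measured member, with the 95% interval of the fit as the bar, for 2000 mg/kg on day 8, 2000 mg/kg on day 29 and 200 mg/kg on day 29. The left panel holds the genes the family was picked for, on a wider axis, from -3.16 for Acnat2 to 4.85 for Acot1, and the right panel the 6 tested members, from -0.41 for Baat to 0.88 for Acot2.

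At the lower dose of 200 mg/kg for 28 days, no tested thioesterase passed, while Acnat2 and Baat were lower. Acot1 ran from -1.04 to -0.71 (median -0.84), overlapping the vehicle animals, with a difference of -0.15 ± 0.34 (95% interval from -0.86 to 0.55), and of -0.50 with quantile normalization. Acot2 differed by 0.10 ± 0.10 (adjusted p = 0.778) and Acot7 by -0.035 ± 0.07 (adjusted p = 0.906). Acot8 was between the vehicle and 2000 mg/kg means, at 0.22 ± 0.08 above vehicle, which did not pass (adjusted p = 0.160). Acot12 and Acot13 differed by 0.082 and 0.050 and did not pass.

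Acnat2 at 200 mg/kg ran from -0.080 to 0.29 (median 0.0057) in its first cluster, below all 6 vehicle animals, by -0.54 ± 0.21 (1.45-fold lower), and the second cluster gave -0.54 ± 0.20. Baat ran from -0.15 to 0.059 (median -0.028) and was lower by -0.20 ± 0.06 (1.15-fold, adjusted p = 0.0413), with overlap between the groups. Baat was the only one of the 6 tested members that limma called at this dose, where it called 2.78% of all clusters (1.37% higher and 1.42% lower). An unadjusted p under 0.05 was found for 2 of the 6. The share of all clusters with such an unadjusted p was not counted, so this and later counts of that kind are no result about the genes. None of the 6 had groups apart, against 1.51% of all clusters. The Baat call was lost when any of 10 of the 12 animals was left out (vehicle replicates 2 to 6 or 200 mg/kg replicates 1, 3, 4, 5 or 6), with adjusted p from 0.0141 to 0.101 over the 12 fits.

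Set against 200 mg/kg on day 29, the 2000 mg/kg animals were higher in Acot1 by 3.06 ± 0.36 and lower in Acnat2 by a difference of -1.96 ± 0.22. Acot2 was higher by 0.78 ± 0.11 (adjusted p = 1.53e-05) and Acot7 by 0.32 ± 0.07 (adjusted p = 0.00290), and Acot12 was lower by -0.33 ± 0.06 (adjusted p = 0.000343), all 3 without overlap. Acot8 differed by 0.23 ± 0.08 and did not pass (adjusted p = 0.0877), although it passed without 2000 mg/kg replicate 3 (0.28, adjusted p = 0.0381). Baat was lower by -0.19 ± 0.06 (adjusted p = 0.0394), and this call was lost without any of 7 of the 11 animals (200 mg/kg replicates 2, 4, 5 or 6, or 2000 mg/kg replicates 1, 2 or 5), with adjusted p up to 0.118. Of the 6 members 2 were higher and 2 lower, against 6.05% and 3.84% of all clusters (9.89% in all), and 3 had groups apart, against 6.12%. These comparisons share the same 2000 mg/kg animals or the same vehicle animals with those above.

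The order of the Acot1 group means was 200 mg/kg on day 29 (-0.85), vehicle on day 29 (-0.70), vehicle on day 8 (0.12), 2000 mg/kg on day 29 (2.21) and 2000 mg/kg on day 8 (4.97). Only the last neighbours in that order did not overlap. The lowest 2000 mg/kg animal of day 29 (0.55) lay under the highest day 8 vehicle animal (0.74). For the first Acnat2 cluster the order was vehicle on day 29 (0.60), vehicle on day 8 (0.093), 200 mg/kg on day 29 (0.061), 2000 mg/kg on day 29 (-1.90) and 2000 mg/kg on day 8 (-3.06). There the middle pair overlapped, the day 29 vehicle animals lay above all others, and the ranges of the 2 high dose groups overlapped through replicate 5 of day 29.

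From day 8 to day 29 the treated minus vehicle difference of Acot1 shrank by a change of -1.94 ± 0.50, and that of the first Acnat2 cluster by 0.66 ± 0.31 toward 0 (second cluster 0.37 ± 0.29, 95% interval from -0.23 to 0.98). With quantile normalization the Acot1 change was -0.96, and the Acnat2 changes turned to -0.14 and -0.35. None of the 6 tested members was called by limma in this comparison, where it called 0.775% of all clusters (0.472% higher and 0.304% lower), and none had an unadjusted p under 0.05. For Acot2 the change was 0.072 ± 0.15 (95% interval from -0.23 to 0.38) and for Baat 0.018 ± 0.08 (from -0.15 to 0.18).

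The day 8 and day 29 vehicle groups were compared as well. Age, length of dosing and day of collection go together in these groups and cannot be told apart. Acot1 was lower on day 29 than on day 8 by -0.82 ± 0.34 (1.76-fold) and Acot2 by -0.53 ± 0.10 (1.44-fold, adjusted p = 0.00885), while Acnat2 was higher by 0.51 ± 0.21 in its first cluster, with no overlap. Acot2 was the only one of the 6 tested members called, and it was lower, against 2.73% of all clusters (0.962% higher and 1.77% lower), and it lost the call in a fit of these 12 animals alone (adjusted p = 0.0575). The other 5 differed by between -0.14 and -0.0088 and did not pass. Vehicle groups overlapped in all 6, against 1.25% of clusters with no overlap.

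**Figure D3:**
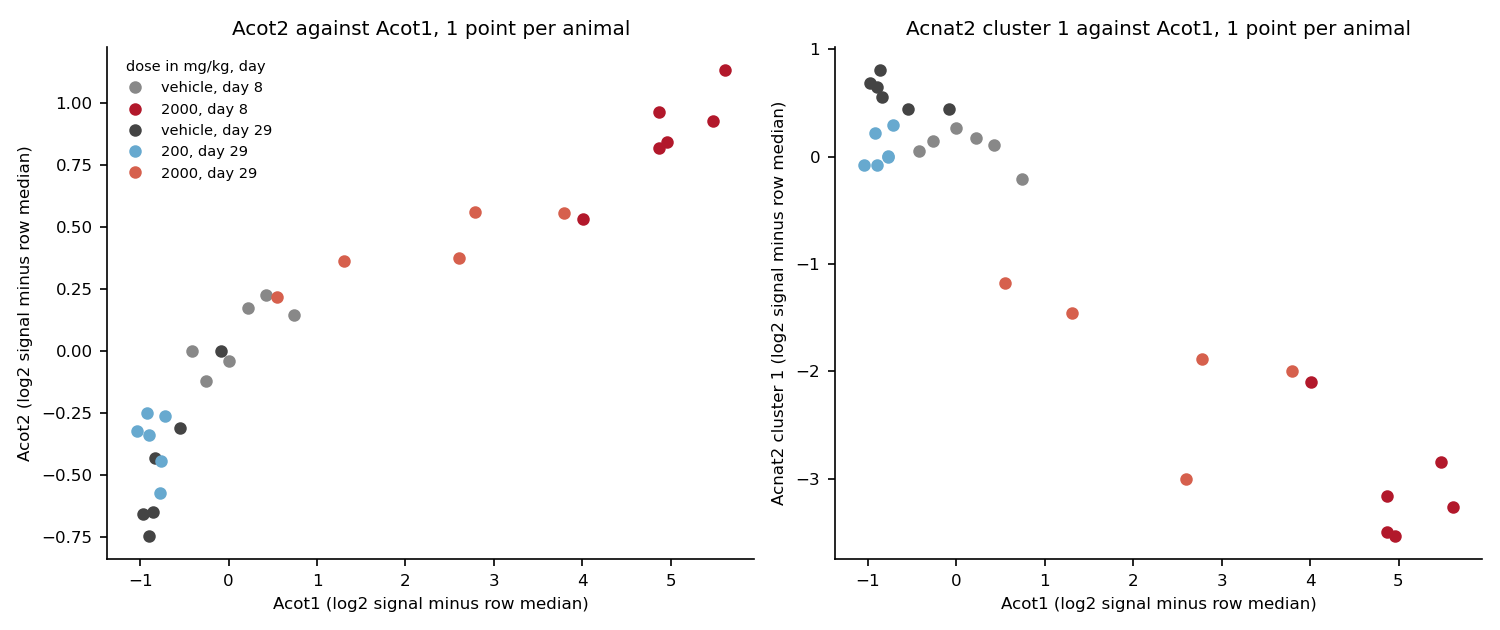
Acot2 (left) and the first Acnat2 cluster (right) against Acot1, each as log2 signal minus the row median, with 1 point per animal coloured by dose and day. The day 29 animals at 2000 mg/kg run from 0.55 to 3.79 on the Acot1 axis, and the day 8 animals at that dose all lie further right, from 4.01 to 5.61.

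Across the 29 animals Acot1 and Acot2 had a Pearson r of 0.94, which fell to 0.64 once each group's mean was removed. For Acot1 and the first Acnat2 cluster r was -0.95, and -0.56 within groups, and for Acot1 and Baat -0.69 and -0.12. Points share arrays and groups, so these are descriptions with no test. The named genes whose pattern was most like Acot1 over the 29 animals were Elovl6, a fatty acid elongase (r 0.97, within groups 0.66), Cpt1b (0.97 and 0.85), Tmem120a, a membrane protein (0.96 and 0.77), and both clusters of Cbr1, a carbonyl reductase (0.96 and 0.47, 0.95 and 0.43). Their differences from vehicle at 2000 mg/kg on day 8 were 2.35 for Elovl6, 2.07 for Cpt1b, 0.97 for Tmem120a, and 1.17 and 1.35 for Cbr1.

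Most like both Acnat2 clusters were Nox4, an NADPH oxidase (r 0.98 with each), and Hao2, a peroxisomal hydroxy acid oxidase (0.98 with each), with within-group r of 0.75 and 0.70 for the first cluster. Nox4 differed from vehicle by -2.72, -2.43 and -0.51 at 2000 mg/kg on day 8, 2000 mg/kg on day 29 and 200 mg/kg, and Hao2 by -1.89, -1.76 and -0.42. Crip2 and Gpld1 followed for both clusters (0.97 each). Next came Dhrs7l1 for the first (0.97), whose day 8 difference at 2000 mg/kg was -5.01, and Khk, the first enzyme of fructose breakdown, for the second (0.96).

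Baat needs bile acid CoA esters and taurine or glycine, and the genes for bile acid activation and taurine uptake, Slc27a5 and Slc6a6, both fell at 2000 mg/kg. Slc27a5, which activates bile acids to their CoA esters, ran from 0.43 to 0.78 in day 8 vehicle animals (median 0.56) and from -1.24 to -0.15 at 2000 mg/kg (median -0.59). On day 29 it ran from 0.21 to 0.76 in vehicle animals (median 0.61) and was -0.66, -0.77, -0.40, -0.82 and -0.65 at 2000 mg/kg. Its differences were -1.23 ± 0.13 (adjusted p = 2.74e-08) and -1.22 ± 0.13 (adjusted p = 7.82e-08), with no overlap on either day, and -0.57 ± 0.13 at 200 mg/kg (adjusted p = 0.0104).

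Taurine, the main amino acid of bile acid conjugates in rats, is taken up by Slc6a6. That transporter ran from 0.76 to 1.29 in day 8 vehicle animals (median 1.07) and from -1.14 to -0.63 at 2000 mg/kg (median -0.95). On day 29 it ran from -0.38 to 1.13 in vehicle animals (median 0.55) and was -1.05, -0.92, -1.59, -1.06 and -0.95 at 2000 mg/kg, with no overlap on either day. It fell by 1.96 on the log2 scale on day 8 (adjusted p = 5.88e-09) and by 1.55 on day 29 (adjusted p = 7.62e-07), while the difference at 200 mg/kg, -0.43 ± 0.18, did not pass. Of the 8 measured genes of taurine and glycine supply, limma called 2 higher and 4 lower on day 8 and 2 higher and 3 lower on day 29, where 9.32% and 9.32% of all clusters were called higher and lower on day 8 and 12.1% and 9.55% on day 29. Cdo1, the first enzyme of taurine synthesis from cysteine, fell by 0.36 and 0.33, and Csad, which follows it, by 0.37 on day 8 (adjusted p = 0.0286). Gldc, of glycine cleavage, fell by 1.05 and 1.29, and Slc6a9, a glycine transporter, rose by 0.89 and 0.86. At 200 mg/kg limma called none of the 8, against 2.78% of all clusters. An unadjusted p under 0.05 was found for 4, with no share of all clusters to set beside it. The list medians were -0.14 and -0.12 at 2000 mg/kg, against -0.0049 and 0.0025 for all clusters.

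**Figure D4:**
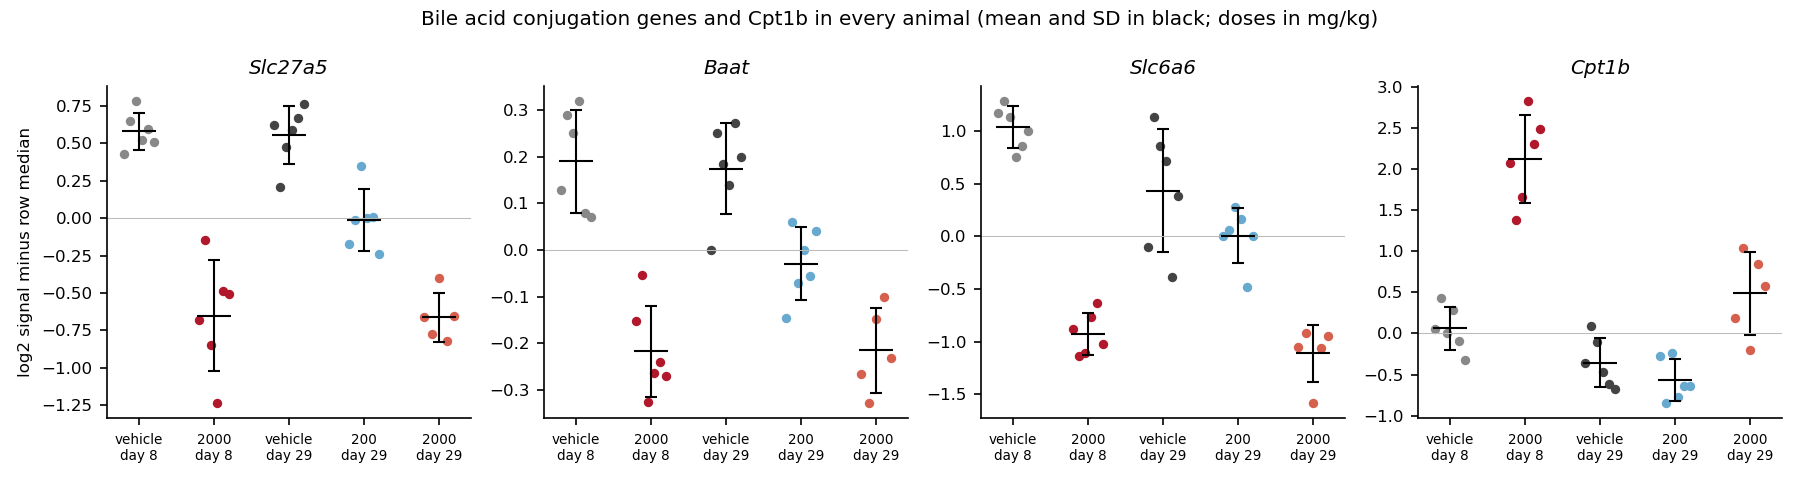
Log2 signal minus the row median (vertical axis) in every animal by dose and day, with the mean and SD as black bars, for Slc27a5, Baat, Slc6a6 and Cpt1b. Slc27a5, Baat and Slc6a6 sit lower in both 2000 mg/kg groups, whose Slc27a5 means are -0.65 and -0.66 against 0.58 and 0.55 in vehicle, and Cpt1b sits higher, with means of 2.13 and 0.49 against 0.060 and -0.35.

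Of 8 measured thioesterases outside the family, 2 rose on day 8 and 3 on day 29 at 2000 mg/kg, with list medians of 0.17 and 0.12, and limma called none lower. Of all clusters 9.32% were called higher on day 8 and 12.1% on day 29 (18.6% and 21.6% in either direction). Over the alternative fits the rises ran from 2 to 4 on day 8, with up to 1 fall, and from 2 to 3 on day 29. Counts of so few genes are no result about them. Hibch, which frees hydroxyisobutyrate from its CoA ester in valine breakdown, rose by 1.04 ± 0.09 on day 8, 1.08 ± 0.10 on day 29 and 0.46 ± 0.09 at 200 mg/kg (adjusted p = 2.14e-09, 2.63e-09 and 0.00453). Acot9, a mitochondrial thioesterase, rose by 0.41 and 0.61 at 2000 mg/kg, and Them4 by 0.35 on day 29, a call lost without 2000 mg/kg replicate 5 (adjusted p = 0.0616). Acot5, of the type I gene row on chromosome 6, differed by 0.34 on day 8 and just missed the threshold (adjusted p = 0.0515).

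Of 4 other N-acyltransferases measured, 1 rose and 2 fell on day 8 (median -0.17) and 2 rose on day 29 (median 0.34), where 18.6% and 21.6% of all clusters were called. Glyatl2, a glycine N-acyltransferase relative, rose by 0.58 ± 0.07 and 0.70 ± 0.07 at 2000 mg/kg on days 8 and 29 and by 0.45 ± 0.07 at 200 mg/kg. Nat8, which acetylates cysteine conjugates, fell by 0.75 on day 8 (adjusted p = 0.000185) and rose by 0.41 on day 29 (adjusted p = 0.0393), a call lost in 8 of 18 alternative fits, among them those without vehicle replicates 1, 2, 4 or 5 or 2000 mg/kg replicates 3, 4 or 5 (adjusted p up to 0.108). Nags, which makes the N-acetylglutamate that starts the urea cycle, fell by 0.33 on day 8 (adjusted p = 0.0145). Of the 6 hydrolases that split N-acyl amino acids or ethanolamines, 3 fell on day 8 (median -0.23) and 1 on day 29 (median -0.049), the latter no larger a share than the 21.6% of all clusters. Acy3 fell by 0.81 and 0.77 on the 2 days, and Pm20d1 and Faah by 0.37 and 0.25 on day 8.

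The enzymes that make acyl-CoA, which work against the thioesterases, moved both ways. Of 16 measured acyl-CoA synthetases, 2 rose and 4 fell on day 8, 1 rose and 4 fell on day 29, and 1 rose and 3 fell at 200 mg/kg (medians 0.023, -0.0097 and -0.043), against 18.6%, 21.6% and 2.78% of all clusters called. Acsm3 and Acsm5, both mitochondrial medium-chain synthetases, went in opposite directions at 2000 mg/kg, Acsm3 by -1.06 and -1.69 and Acsm5 by 0.85 and 0.95, and Acsm5 rose by 0.72 at 200 mg/kg. Acsl5 fell by 0.34, 0.32 and, at 200 mg/kg, by 0.55. Of 10 genes of coenzyme A synthesis and breakdown, 4 rose and 1 fell on day 8 and 5 rose and 1 fell on day 29 (medians 0.19 and 0.16), against the same 18.6% and 21.6%. Among them Ppcs and Ppcdc, successive steps of synthesis, rose by 0.39 and 0.23 on day 8. Ppcs rose by 0.64 at 200 mg/kg and by 0.29 at 2000 mg/kg on day 29 (adjusted p = 0.0293), the latter call lost in 9 of 19 alternative fits. Between these doses Ppcs was lower at 2000 mg/kg, by -0.35 ± 0.10 (adjusted p = 0.0170). Vnn1, which frees pantothenate, rose by 0.49 and 0.61 at 2000 mg/kg.

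Peroxisomal genes split within the list. Of 16 measured, 6 rose and 5 fell on day 8 and 5 rose and 6 fell on day 29 (medians 0.058 and -0.096), where 18.6% and 21.6% of all clusters were called. Genes of fatty acid import and oxidation were among those that rose, Abcd2, an importer of very long-chain acyl-CoA, by 1.29 and 1.55, the thiolase Acaa1b by 1.28 and 0.88, and Ehhadh, the bifunctional enzyme, by 0.58 and 0.53. Pex11a, which acts in peroxisome division, rose by 1.01 on day 8. Acox2 and Amacr, which act on the bile acid side chain, fell by 0.50 and 0.35 on day 8 and by 0.31 and 0.52 on day 29, and Hacl1, of alpha-oxidation, fell by 0.93 on day 29. Of 17 mitochondrial fatty acid oxidation genes, 5 rose and 2 fell on day 8 and 2 rose and 6 fell on day 29 (medians -0.014 and -0.085), against the same shares. Cpt1b rose by 2.07 ± 0.21 (adjusted p = 2.58e-08) and 0.84 ± 0.22 (adjusted p = 0.00553), while the liver form Cpt1a differed by -0.11 and -0.18 and did not pass. Acadm fell by 0.24 and 0.33. Pdk4 differed by -0.058 on day 8 and did not pass. It fell by 0.96 on day 29 (adjusted p = 0.0369), a call lost in 9 of 19 alternative fits. Ehhadh, Acox2, Amacr, Cdo1, Csad, Acot5 and Cpt1a were chosen for mention after their values were seen. Not all called peroxisomal genes are named, and a split of that list by function was not tested.

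**Figure D5:**
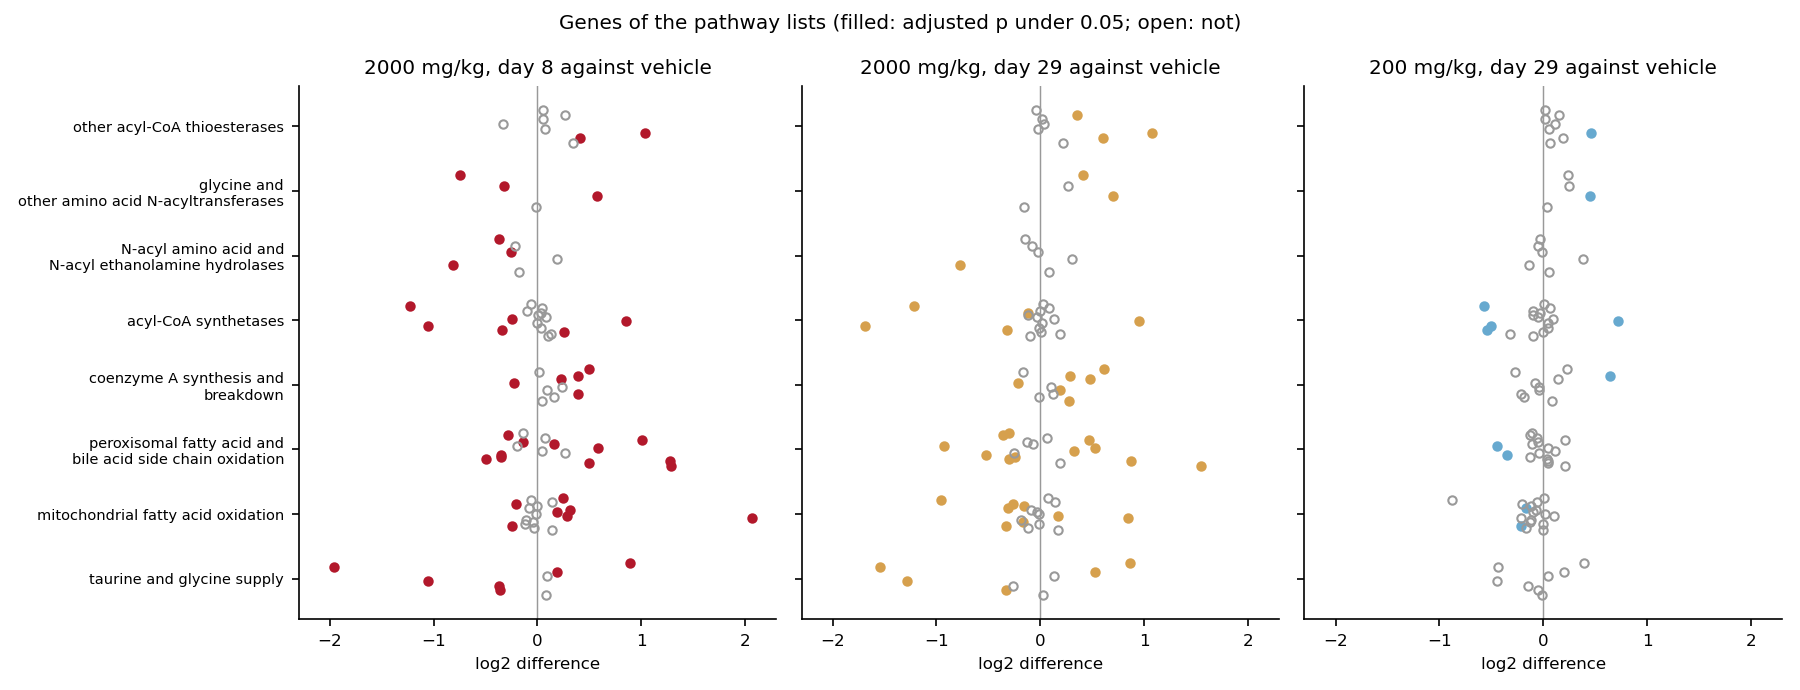
Log2 difference from vehicle (horizontal axis) of every measured gene of the 8 pathway lists, in 1 panel for each comparison with vehicle, filled where the adjusted p was under 0.05 and open otherwise. At 2000 mg/kg the outermost points are Cpt1b at 2.07 on day 8, Abcd2 at 1.55 on day 29, Slc6a6 at -1.96 on day 8 and Acsm3 at -1.69 on day 29.

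The tissue label was set beside markers: all 7 measured hepatocyte markers had stored signals of 8 or more on the log scale in the judged animals. The same held for 2 of 8 Kupffer cell and macrophage, 4 of 7 stellate, 1 of 2 endothelial, 1 of 3 bile duct and 1 of 5 adipocyte markers. Where a marker had several clusters, one with such signals was preferred, which favours these counts. Some markers of other cell types differed between groups. At 2000 mg/kg limma called 18.6% of all clusters on day 8 and 21.6% on day 29, and 2.73% between vehicle groups. All 8 Kupffer cell and macrophage markers were lower at 2000 mg/kg on day 8 (median -0.98, summed as a mean of 0.34 to 1.36 in vehicle and -0.66 to 0.15 in treated animals), and all 8 were also lower in day 29 than in day 8 vehicle animals (median -1.11). On day 29 limma called none of the 8 at 2000 mg/kg, and none had an unadjusted p under 0.05. Of 7 stellate markers 3 fell and 1 rose on day 8 and 6 fell on day 29 (list mean from 0.050 to 0.60 in vehicle and from -0.53 to -0.33 in treated animals). Hepatocyte markers fell in 4 of 7 on day 8 (median -0.14) and 1 of 7 on day 29, the latter no larger a share than that of all clusters. Of 3 bile duct markers 1 rose on each day, and of 2 endothelial markers 1 fell on day 8. Each is 1 gene and no result about its cell type. Of 5 adipocyte markers limma called none on either day (1 with an unadjusted p under 0.05 on day 29). The centred values do not show which markers are near 0, and the part of these cells in the results was not tested. In whole liver, fewer cells of a type and less RNA per cell cannot be told apart.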

How the data were processed

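Liver RNA of 29 rats was labelled and hybridised to Affymetrix whole-transcript arrays, 1 per animal, per the labels' protocols. The values used are the authors' log2 values, deposited as 1 table of 27342 transcript clusters in which each cluster's median over the 29 arrays is 0. Per the submitters' processing notes PLIER and MAS5 were used, with no versions or roles. The sources used here give neither the normalization between arrays nor the log base or genome build. Slides and scans were not analysed here, so no batch was tested. Array medians ran from -0.023 to 0.029, and no 2 arrays correlated above 0.73. The number of arrays limits the precision.

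Gene names came from the platform annotation, in which 15097 clusters carry 1 symbol, 323 carry several and 11922 have no name here. Of the first, 15061 had an identifier in the RefSeq gene table (GRCr8), where 0 symbols differed. For a list gene or marker with several clusters, one whose judged stored values were all at 8 or above was preferred.

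The test was limma's (version 3.58.1, R version 4.3.3): 1 mean for each of the 5 groups was fitted to all 29 animals, variances were moderated by empirical Bayes, and two-sided p-values were adjusted by Benjamini-Hochberg across the 27342 clusters of each comparison, with 0.05 as the threshold. Rose and fell mean an adjusted p under it. The code was tested on simulated data. Replicates are separate animals, per the labels. The 10 members, the pathway and marker lists and the tests were chosen with earlier results of these data known. Named genes are all members, up to 4 called genes of each pathway list with the largest differences from vehicle (the text gives a part of them) and the 5 clusters most like Acot1 and each Acnat2 cluster. The alternatives were quantile normalization, array medians subtracted, clusters with 1 symbol, clusters with stored values of 8 or more and the groups compared alone. Others were a trend with robust moderation, array weights, a replicate block and each animal left out. Quantile normalization was run on the values already centred on each cluster's median, not on the signals before centring. For list genes the alternatives were added after the data were seen.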

Additional observations from a re-analysis of the deposited data

Results flagged for a closer look

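Acot8 in replicate 3 of the 2000 mg/kg group on day 8 had a value of 0.065, far from the other 5 animals, of which the nearest had 0.47. It was 1 of 45 member and group combinations checked, and chance would flag about 1 in 20. Among the genes of the pathway lists named here, 3 had an effect of 2000 mg/kg that differed between day 8 and day 29. This was by the limma test of the difference, which called 0.775% of all clusters. These genes were named for their differences from vehicle in the same data, so the 3 are no neutral count. Outside them, 1 gene of the mitochondrial fatty acid oxidation list was called, with a negative change. For Nat8 the change was 1.16 ± 0.20 (adjusted p = 0.00475, from 0.000991 to 0.0261 over 30 alternative fits), from a fall on day 8 to a rise on day 29. For Nags the change was 0.59 ± 0.14 (adjusted p = 0.0367, from 0.0193 to 0.0754 over 31 alternative fits, of which 12 lost the call: quantile normalization, the replicate block, and leaving out vehicle replicates 2 or 5 or 2000 mg/kg replicates 1, 3 or 6 of day 8, or vehicle replicates 5 or 6 or 2000 mg/kg replicates 1, 4 or 5 of day 29). For Hacl1 it was -0.73 ± 0.16 (adjusted p = 0.0321, lost in 5 of 31, up to 0.0734: quantile normalization and leaving out 2000 mg/kg replicate 1 of day 8, vehicle replicate 3 of day 29 or 2000 mg/kg replicates 1 or 5 of day 29).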

How the results depend on the processing

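Among the values of single members under the other settings, 390 kept their direction and side of the threshold or moved by less than the spread, 5 lost a call, 5 with no test moved further and 2 reversed. With quantile normalization the change of the Acnat2 effect between days turned to -0.14 and -0.35 in the 2 clusters, Acot1 on day 8 was 3.21 and the Acnat2 clusters -2.24 and -1.97, Acot1 at 200 mg/kg was -0.50, and 102 clusters were called for the change between days. The cause was not tested. Baat at 200 mg/kg lost its call with quantile normalization or with array medians subtracted (adjusted p = 0.0535 in each) and with the groups compared alone (0.0943), and Baat between doses with the groups compared alone (0.0546). Testing only clusters with stored values of 8 or more, so fewer of them, left 3243 calls on day 8 and 3549 on day 29. The groups compared alone, so fewer animals, gave 340 calls at 200 mg/kg and 136 between vehicle groups. Array weights gave 673 for the change between days and 1773 between vehicle groups.

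Leaving out 1 animal at a time, calls ran from 4400 to 4802 on day 8, from 4791 to 6313 on day 29, from 436 to 1102 at 200 mg/kg, from 1755 to 2813 between doses, from 76 to 563 for the change between days and from 254 to 2141 between vehicle groups. At 200 mg/kg the low counts were 436 and 451, without 200 mg/kg replicates 5 and 6, and between doses 1755 without 2000 mg/kg replicate 5. The highest counts for the change and between vehicle groups, 563 and 2141, came without vehicle replicate 2 of day 29, and the lowest, 76 and 254, without 2000 mg/kg replicate 1 of day 8 and without vehicle replicate 5 or 6 of day 29. Of the list genes against vehicle, Acsm3, Hacl1, Acadm and Etfdh at 200 mg/kg lost the call in 11, 9, 11 and 5 of 20 alternative fits. At 2000 mg/kg on day 29 Nat8 lost it in 8 of 18, and Ppcs, Pdk4 and Pex11a in 9, 9 and 6 of 19. Shmt2 on day 8 lost it in 6 of 20. For Ehhadh, Acox2, Amacr, Cdo1 and Csad the calls under the alternatives were not recorded.

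The labels do not say that equal replicate numbers pair animals. Deviations of same-numbered animals correlated from -0.28 to 0.30, and 5 of 12 animals at most correlated best with their own number. With the replicate block, limma called 5008, 5964, 780, 2736, 224 and 799 clusters in the 6 comparisons (5096, 5910, 761, 2704, 212 and 746 without it), and no call of a member changed.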
